A study of Mus musculus with 8 samples.

Results

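The CC chemokines described here are the 10 genes Ccl2, Ccl3, Ccl4, Ccl5, Ccl6, Ccl7, Ccl9, Ccl12, Ccl22 and Ccl24, of 37018 genes and transcripts measured. They were chosen by name from a larger family, with earlier results of these data known, so they are not an unselected sample of it. Each has 1 probe, found through its RefSeq accession. The 10 other CC ligands that were measured are described further below. The probe of Ccl2 is printed as 10 spots on every array, and those of the other 9 genes as 1 spot. The RNA came from peritoneal macrophages, obtained as adherent cells of the peritoneal cavity, of WT mice and of littermates that carry LysMCre-fur(fl/fl), the KO. In the KO the Cre recombinase is expressed from the lysozyme locus, so that the floxed Furin gene is deleted in macrophages and other myeloid cells. The floxed mice had been backcrossed to C57BL/6, and whether the WT littermates carried a floxed allele or Cre is not given in the sources used here, nor are the age of the animals and whether animals were pooled. Cells of each genotype were left untreated or received LPS, the cell wall component of E. coli that activates Toll-like receptors, at 1 μg/ml for 1, 4 or 24 h. Each 2-colour array held the RNA of both genotypes at 1 time point, and 2 arrays per time point give 2 biological replicates, 8 arrays and 16 channels in all. Replicate 1 had WT in Cy3 and KO in Cy5 and replicate 2 had the dyes exchanged, so the replicate number and the dye orientation cannot be told apart.

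CC chemokines are small secreted proteins that attract leukocytes through G protein-coupled receptors of the Ccr family. Macrophages are a main source of them, and LPS signalling through Toll-like receptors activates NF-κB and AP-1 factors, which bind the promoters of many inflammatory chemokine genes. Ccl2, Ccl7 and Ccl12 attract monocytes through Ccr2. Ccl3, Ccl4 and Ccl5 attract monocytes, T cells and NK cells, while Ccl22 attracts T cells through Ccr4 and Ccl24 attracts eosinophils through Ccr3. Ccl6 and Ccl9 are rodent ligands of Ccr1 that macrophages also make without inflammation. In the mouse genome 8 of the 10 genes lie on chromosome 11, where Ccl2, Ccl7 and Ccl12 belong to one cluster and Ccl5, Ccl9, Ccl6, Ccl3 and Ccl4 follow each other in another.

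Promoter sequences of 5 of the 10 genes, Ccl3, Ccl6, Ccl9, Ccl12 and Ccl22, are in the RefSeq table for GRCm38.p6. Those of 4 genes are shown because they stand for the courses described below, an early rise (Ccl3), a late rise (Ccl12), a fall (Ccl6) and, in its neighbour Ccl9, a small rise followed by a fall. Each is the run of 250 bases that ends at the base before the transcription start, 5′ to 3′ on the strand of the gene. Capitals mark the letters of any match, on either strand, to the NF-κB consensus, to the AP-1 site TGANTCA or to TATAAA.
Ccl3, chr11:83649379-83649628, minus strand: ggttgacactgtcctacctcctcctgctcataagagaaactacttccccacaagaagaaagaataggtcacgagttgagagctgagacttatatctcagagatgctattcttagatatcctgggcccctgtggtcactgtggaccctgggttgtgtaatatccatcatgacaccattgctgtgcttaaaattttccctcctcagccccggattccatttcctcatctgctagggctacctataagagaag
Ccl12, chr11:82101595-82101844, plus strand: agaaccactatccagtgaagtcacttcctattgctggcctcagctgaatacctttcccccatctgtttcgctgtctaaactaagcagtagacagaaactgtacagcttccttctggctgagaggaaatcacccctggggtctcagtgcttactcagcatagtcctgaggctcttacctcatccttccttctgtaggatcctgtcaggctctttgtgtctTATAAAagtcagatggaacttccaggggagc
Ccl6, chr11:83593088-83593337, minus strand: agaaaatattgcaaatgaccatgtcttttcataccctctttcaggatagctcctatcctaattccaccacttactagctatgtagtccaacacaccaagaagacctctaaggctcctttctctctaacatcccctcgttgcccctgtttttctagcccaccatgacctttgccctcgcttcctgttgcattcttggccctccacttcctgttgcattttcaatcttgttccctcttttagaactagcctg
Ccl9, chr11:83578637-83578886, minus strand: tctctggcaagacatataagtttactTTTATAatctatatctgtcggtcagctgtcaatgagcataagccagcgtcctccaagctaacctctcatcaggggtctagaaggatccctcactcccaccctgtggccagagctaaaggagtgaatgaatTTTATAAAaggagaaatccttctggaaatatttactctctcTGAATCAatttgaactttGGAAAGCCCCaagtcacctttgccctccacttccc
The window of Ccl9 holds an NF-κB match that begins 35 bases before the start, an AP-1 match at 53 bases and 3 TATAAA matches, of which those that begin at 94 and 92 bases overlap on opposite strands. The window of Ccl12 holds a TATAAA match at 31 bases. The windows of Ccl3, Ccl6 and Ccl22 hold none of these letters, which says nothing of sites outside them. Of all 32851 promoter windows of the same length, 7.25% hold the NF-κB consensus, 6.75% the AP-1 site and 12.4% TATAAA. Ccl6 and Ccl9 share a run of 13 bases, gccctccacttcc, which begins 55 bases before the start in Ccl6 and 14 bases before it in Ccl9. That is the longest run shared by any pair of the 5 windows.

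Between 43.8% and 51.3% of the gene spots of a channel were well above background. The 10 chemokines were above it in all 16 channels, except for Ccl12, which was not in both untreated channels of replicate 2 and in the WT channel of replicate 2 at 1 h, and Ccl22, which was not in the untreated WT channel of replicate 1. None of their spots was saturated. The log2 KO/WT ratio of Furin lay between -0.85 and -0.55 on the 6 arrays of 0, 1 and 24 h, but was 0.0012 and 0.33 at 4 h. Lyz2, the lysozyme gene whose locus carries the Cre, was lower in KO on all 8 arrays, with ratios from -1.85 to -0.75. The channels of 4 h are therefore called KO by their label, against the Furin value. All 6 macrophage markers measured were above background in every channel, as were B cell markers, T cell markers such as Cd3e, and 6 of 7 mast cell markers, so the RNA is that of adherent peritoneal cells with macrophages among them. On the list of T and NK cell markers, Ncr1 and Klrb1c were above background in 0 of 16 channels and Gzma in 11. Fewer cells of a type and less RNA per cell cannot be told apart in such bulk RNA.

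LPS changed all 10 CC chemokines in both genotypes. Within 1 h 5 of them rose, Ccl2, Ccl3, Ccl4, Ccl5 and Ccl7, at a time when 3.39% of all genes and transcripts had risen in WT and 3.09% in KO. None fell by then, against 5.12% of all in WT and 4.37% in KO. The calls over all genes at 1 h, 3141 in WT and 2756 in KO, fell to 1797 and 1435 without untreated replicate 1, where the same number of members, 5, was called. At 4 h 8 had risen and 2, Ccl6 and Ccl24, had fallen, in WT (15.5% of all rose and 19.3% fell) as in KO (16.2% and 19.7%). At 24 h 7 were higher than in untreated cells and 3, Ccl6, Ccl9 and Ccl24, were lower, in WT (13.5% of all higher and 17% lower) and in KO (12.7% and 15.9%). The same genes were called in the same direction in both genotypes, 5 at 1 h and all 10 at 4 h and at 24 h. With the replicate number as a term this did not hold at 1 h. There 7 rose in WT, Ccl9 and Ccl22 being added, where 1736 of all genes rose. In KO 5 rose and 1, Ccl6, fell, where 1768 of all genes rose and 2584 fell. The median log2 change of the 10 in WT was 1.75, 4.43 and 4.65 at the 3 times in turn. In KO it was 1.46, 4.18 and 4.16, and that of all genes lay between -0.02 and 0.00 throughout. Calls rest on limma's separate-channel analysis, with p-values adjusted over 36927 genes and transcripts.

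**Figure D1:**
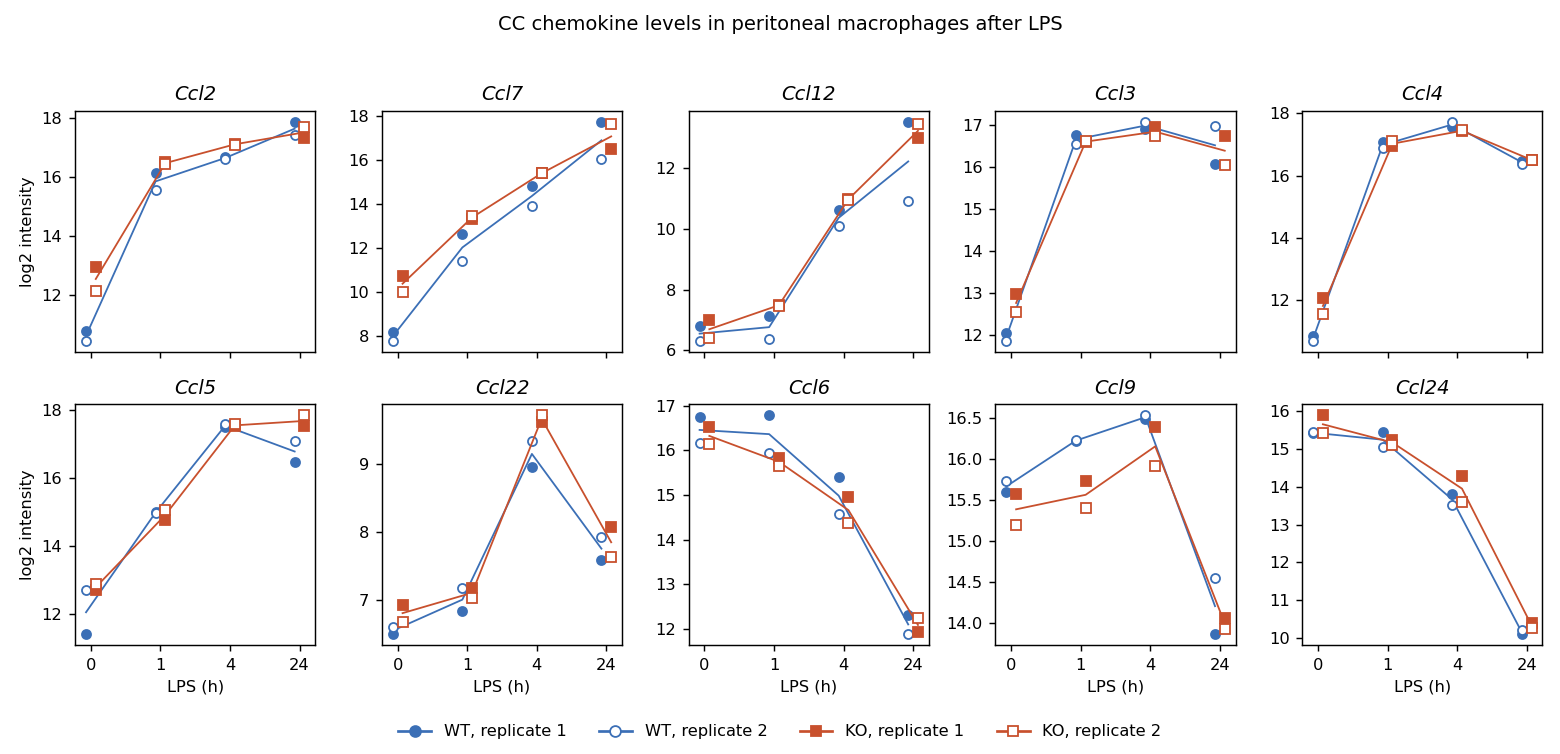
Log2 intensity of each CC chemokine (y axis, scaled per gene) in untreated cells (0) and after 1, 4 and 24 h of LPS (x axis, time points at equal spacing). Circles are WT and squares KO, filled symbols replicate 1 and open symbols replicate 2, and lines join the means of the 2 replicates. Ccl2 and Ccl7 start higher in both KO channels than in both WT channels, and Ccl6 and Ccl24 fall by 24 h in both genotypes.

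Ccl2 had log2 intensities of 10.79 and 10.44 in the 2 untreated WT channels, 16.16 and 15.56 at 1 h, 16.67 and 16.63 at 4 h, then 17.87 and 17.43 at 24 h. In KO they were 12.94 and 12.15 untreated, then 16.50 and 16.45, 17.13 and 17.10, and 17.34 and 17.71. Both untreated KO channels were above both WT channels, and at 24 h the genotypes overlapped. The rise over untreated cells at 1 h was 37.9-fold in WT (log2 5.24, standard error 0.25, adjusted p = 1.12e-08) and 15.3-fold in KO (log2 3.94, standard error 0.25, adjusted p = 2.09e-07). By 24 h it was 131-fold in WT and 31.6-fold in KO. The gain from 1 to 4 h was 0.79 in WT (adjusted p = 0.0244) and 0.64 in KO (adjusted p = 0.0649, or 0.0243 with the replicate number as a term and 0.0301 without either untreated array), and that from 4 to 24 h was 1.00 in WT (adjusted p = 0.00628) and 0.41 in KO (adjusted p = 0.264). The WT gain from 1 to 4 h lost its call without replicate 2 at 1 h (adjusted p = 0.287) or either array at 4 h (0.117 and 0.0965), and that from 4 to 24 h without replicate 1 at 24 h (0.0764).

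Ccl7 began far lower in WT, with 8.19 and 7.77 in untreated channels, 12.63 and 11.41 at 1 h, 14.83 and 13.89 at 4 h, then 17.72 and 16.06 at 24 h. The KO channels held 10.74 and 10.00 untreated, 13.30 and 13.46 at 1 h, 15.39 in both at 4 h, then 16.50 and 17.64 at 24 h. At 0, 1 and 4 h both KO channels were above both WT channels. At 24 h the higher value of each genotype was the one in Cy3. The rise by 24 h was 481-fold in WT, the largest of the 10 genes there (log2 8.91, standard error 0.54) and 104-fold in KO (log2 6.70, standard error 0.54). In WT it was 8.08 on the log2 scale without replicate 1 at 24 h and 9.74 without replicate 2. At 1 h the rise was 4.04 in WT (adjusted p = 0.000256, and 3.43 or 4.65 without replicate 1 or 2 at 1 h) and 3.01 in KO (adjusted p = 0.00316, and 0.0506 without untreated replicate 2). Ccl7 went on rising between 1 and 4 h, by 2.34 in WT and 2.01 in KO, and between 4 and 24 h, by 2.53 and 1.68. With 1 array left out the 2 WT gains ranged from 1.73 to 2.95 and from 1.70 to 3.36. Of these, the first in WT was no longer called without replicate 2 at 1 h (adjusted p = 0.0759) or replicate 1 at 4 h (0.0691), and the last in KO without either array at 4 h (0.103 and 0.0974) or without replicate 2 at 24 h (0.125).

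Ccl12 was the late member of the monocyte-attracting group. Its untreated log2 intensities were 6.79 and 6.31 in WT and 6.99 and 6.39 in KO, near the background, and at 1 h they were still 7.14 and 6.38 in WT and 7.50 and 7.47 in KO. The change at 1 h was 0.21 in WT and 0.79 in KO, neither past the threshold (adjusted p = 0.928 and 0.578). At 4 h the channels read 10.62 and 10.11 in WT and 10.99 and 10.96 in KO, a 14.1-fold and a 19.5-fold rise over untreated levels of which only that of replicate 1 was well above background in each genotype (log2 3.82 and 4.28, standard error 0.58 for each, adjusted p = 0.000103 and 3.57e-05). At 24 h the values were 13.52 and 10.93 in WT and 13.01 and 13.46 in KO. The WT channel of replicate 2 stood well below the other 3. The WT rise by 24 h was 5.68 on the log2 scale, and 4.38 without replicate 1 and 6.97 without replicate 2 at 24 h. Its further gain from 4 to 24 h of 1.86 (adjusted p = 0.0253) was 0.56 without replicate 1 at 24 h (adjusted p = 0.275), and it also lost its call without either array at 4 h (0.0657 and 0.168). The gain in KO was 2.26 (adjusted p = 0.00789). With the software's processed signals neither gain was called (adjusted p = 0.105 in WT and 0.0594 in KO).

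Ccl4 and Ccl3, which attract monocytes and T cells, had most of their rise within the first hour. Ccl4 read 10.85 and 10.68 in untreated WT channels, 17.07 and 16.89 at 1 h, 17.57 and 17.72 at 4 h, then 16.48 and 16.38 at 24 h. In KO it read 12.06 and 11.55, then 16.95 and 17.10, 17.43 and 17.46, and 16.51 and 16.49. The genotypes did not overlap in untreated cells and overlapped at 1 h. The rise at 1 h was 74.3-fold in WT and 37.2-fold in KO, and the highest level was at 4 h, 118-fold and 49.6-fold over untreated cells. Between 4 and 24 h Ccl4 fell by 1.21 in WT (adjusted p = 1.49e-05) and by 0.94 in KO (adjusted p = 0.000139). Between 1 and 4 h it rose by 0.66 in WT (adjusted p = 0.00231). The KO gain of 0.42 in that interval (adjusted p = 0.0380) was lost with any one of the 6 arrays of LPS-treated cells left out (adjusted p from 0.0623 to 0.218) and with Aquantile scaling (0.107).

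Ccl3 was 12.06 and 11.86 in untreated WT channels and 12.98 and 12.56 in those of KO. At 1 h it stood at 16.78 and 16.55 in WT and 16.60 and 16.63 in KO. Its rise at that time was 26.1-fold in WT (log2 4.71, standard error 0.27) and 14.4-fold in KO (log2 3.84, standard error 0.27). The later steps did not pass the threshold in either genotype, with 0.33 and 0.24 between 1 and 4 h and -0.47 and -0.45 between 4 and 24 h. At 24 h WT read 16.07 and 16.98 and KO 16.74 and 16.06, so that the higher value of each genotype was in Cy5, opposite to Ccl7.

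Ccl5 rose in 2 steps. Its untreated channels held 11.40 and 12.68 in WT and 12.69 and 12.86 in KO, and the WT channel of replicate 1 stood apart from the other 3. At 1 h the values were 15.00 and 14.95 in WT and 14.76 and 15.05 in KO, at 4 h 17.49 and 17.58 in WT and 17.51 and 17.58 in KO, and at 24 h 16.47 and 17.08 in WT and 17.51 and 17.84 in KO. The first step was 2.94 in WT (standard error 0.30, adjusted p = 2.14e-05) and 2.13 in KO (standard error 0.30, adjusted p = 0.000449). Without untreated replicate 1 the WT step was 2.29, and without replicate 2 it was 3.58. The step from 1 to 4 h was 2.56 and 2.64. After 4 h the change was -0.76 in WT (adjusted p = 0.0771, or 0.0196 with the replicate term, and 0.00626 without either untreated array) and 0.13 in KO (adjusted p = 0.823).

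Ccl22, a ligand of Ccr4, had a single peak at 4 h. Its log2 intensities in untreated cells were 6.50 and 6.61 in WT, the first not well above background, and 6.94 and 6.69 in KO. They reached 8.95 and 9.35 in WT and 9.62 and 9.72 in KO at 4 h, where KO channels were above those of WT, and returned to between 7.59 and 8.07 at 24 h. The rise by 4 h was 6.04-fold in WT (log2 2.60, standard error 0.19, adjusted p = 7.36e-08) and 7.23-fold in KO (log2 2.85, standard error 0.19, adjusted p = 3.04e-08). Between 4 and 24 h Ccl22 fell by 1.39 in WT and by 1.81 in KO, and it remained above the untreated level (2.30-fold and 2.06-fold). Its change at 1 h was 0.46 in WT (adjusted p = 0.195, or 0.0240 with the replicate term) and 0.30 in KO (adjusted p = 0.479).

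The eosinophil attractant Ccl24 fell most. It was at 15.42 and 15.46 in untreated WT channels and at 15.90 and 15.42 in those of KO. At 4 h the values were 13.81 and 13.52 in WT and 14.30 and 13.61 in KO, and at 24 h 10.10 and 10.20 in WT and 10.40 and 10.26 in KO. At 24 h every channel was far below every untreated one, by 39.2-fold in WT (log2 -5.29, standard error 0.21, adjusted p = 4.93e-10) and by 40.2-fold in KO (log2 -5.33, standard error 0.21, adjusted p = 5.62e-10). Its changes at 1 h were -0.19 in WT and -0.48 in KO, neither past the threshold.

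Ccl6 followed a similar course, from 16.75 and 16.16 in untreated WT channels and 16.51 and 16.13 in KO to 12.32 and 11.88 in WT and 11.92 and 12.25 in KO at 24 h. The fall was 20.5-fold in WT and 18.9-fold in KO at 24 h, and 2.78-fold and 3.17-fold at 4 h. At 1 h the change was -0.09 in WT (adjusted p = 0.945) and -0.58 in KO (adjusted p = 0.383, or 0.0404 with the replicate term). Its neighbour Ccl9, another Ccr1 ligand, first rose and then fell. It held 15.60 and 15.73 in untreated WT channels, 16.21 and 16.23 at 1 h, 16.49 and 16.53 at 4 h, then 13.86 and 14.55 at 24 h. In KO it held 15.57 and 15.20, 15.73 and 15.40, 16.39 and 15.91, and 14.06 and 13.93. At 4 h Ccl9 was 1.79-fold higher in WT (adjusted p = 0.00599) and 1.70-fold higher in KO (adjusted p = 0.0106). The KO call was lost without untreated replicate 2 (0.131) or replicate 1 at 4 h (0.154). At 24 h it was 2.75-fold lower in WT and 2.62-fold lower in KO than in untreated cells. In WT the change at 1 h was 0.56 (adjusted p = 0.156, or 0.0191 with the replicate term).

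Between 1 and 4 h 6 of the 10 genes rose and 2 fell in WT (13.9% of all genes rose and 15.7% fell). The same numbers were called in KO (14.9% and 16.9%), but Ccl2 was among the risen genes in WT only and Ccl9 in KO only. Ccl12 and Ccl22, which rose in this interval, had not been called as risen at 1 h. Between 4 and 24 h 3 rose and 5 fell in WT (15.1% and 14.6% of all), and 2 rose and 5 fell in KO (15.6% and 15.1%). The call of Ccl9 between 1 and 4 h in KO (log2 0.59, adjusted p = 0.0490) was lost with any one of 5 arrays left out, both untreated ones, both at 1 h and replicate 1 at 4 h (adjusted p from 0.0577 to 0.393). The fall of Ccl6 between 1 and 4 h was lost without replicate 1 at 1 h or replicate 2 at 4 h, with adjusted p of 0.0738 and 0.0552 in WT and of 0.061 and 0.106 in KO.

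Some marker lists of other cells and of macrophage subsets had other levels at 24 h than in untreated cells, and others moved less. In WT the mean log2 intensity of macrophage markers was 14.01 to 14.28 untreated and 13.78 to 13.79 at 24 h. For B cell markers it was 11.02 to 11.39 and then 10.85 to 10.94. For T and NK cell markers it was 8.74 to 9.28 and then 8.65 to 8.80, and for eosinophil markers 7.30 to 7.38 and then 7.10 to 7.17. The mean log2 intensity of 7 markers of large peritoneal macrophages, among them Gata6 and Timd4, was 12.88 to 13.24 in untreated WT channels and 9.94 to 10.13 at 24 h. In KO it went from 13.19 to 13.27 down to 10.06 to 10.14. That of 6 dendritic cell markers went from 8.63 to 8.64 down to 7.55 to 7.57 in WT. Of these, Xcr1 was above background in 0 of 16 channels and Clec9a in 5. The mean of 7 mast cell markers went from 9.56 to 9.89 down to 7.89 to 8.46 in WT. The 7 markers of small peritoneal macrophages went from 12.14 to 12.31 down to 11.09 to 11.23 in WT. The mean of 6 neutrophil markers was 8.11 to 8.12 in untreated WT channels and 8.81 to 9.01 at 24 h, with S100a9, Cxcr2 and Mpo above background in 0 of 16 channels. That of 7 mesothelial cell and fibroblast markers was 6.66 to 6.68 and then 7.07 to 7.16, with Pdgfra above background in 0 channels and Upk3b in 1. These means were not tested. All 7 large peritoneal macrophage markers were above background throughout. The part of these markers in the falls of Ccl6, Ccl9 and Ccl24 and in the rises was not tested.

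**Figure D2:**
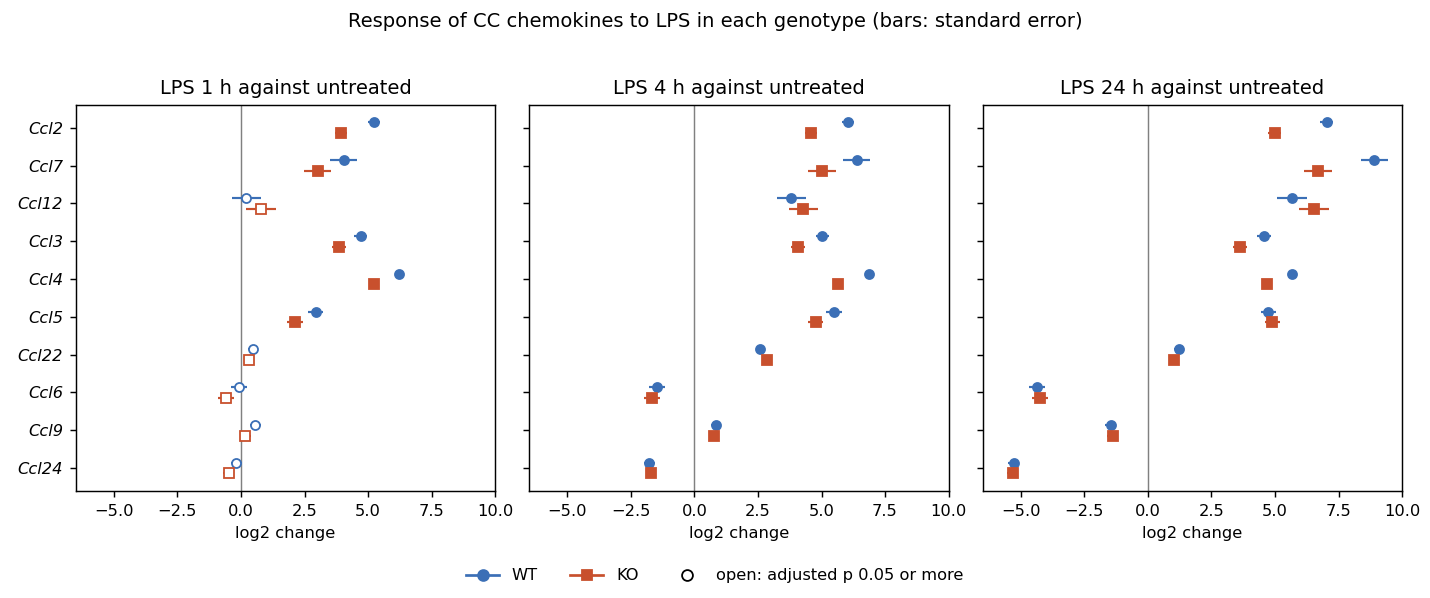
Log2 change of each CC chemokine after 1, 4 and 24 h of LPS against untreated cells of the same genotype (x axis), by gene (y axis). Circles are WT and squares KO, bars are standard errors of the separate-channel fit, and open symbols have an adjusted p of 0.05 or more. The changes run from 8.91 for Ccl7 in WT to -5.33 for Ccl24 in KO, both at 24 h.

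In untreated cells, before any LPS, 7 of the 10 chemokines were higher in KO on both arrays and 2 were lower on both. Of all genes 23.8% were higher on both arrays and 23.8% lower on both. Among the 7, Ccl12 was not well above background in either channel of replicate 2, and Ccl22 was not in the WT channel of replicate 1. Ccl7 had log2 KO/WT ratios of 2.54 and 2.23, a 5.24-fold difference in the mean (standard error 0.56). For Ccl2 they were 2.14 and 1.71, a 3.80-fold difference (standard error 0.20), for Ccl4 1.22 and 0.87, a 2.06-fold difference (standard error 0.12), and for Ccl3 0.92 and 0.69, a 1.75-fold difference (standard error 0.30). Ccl5 was the least even, with ratios of 1.3 and 0.18. The median ratio of the 10 genes was 0.50, against 0.00 for all genes, and it was 0.13 without replicate 1 and 0.70 without replicate 2. In the limma fit without a replicate term none of the 10 passed the threshold at this time, as none of all genes did (0%). The adjusted p was 0.0586 for Ccl2, 0.0773 for Ccl4 and 0.325 for Ccl7, and 5 of the 10 had an unadjusted p under 0.05 where 5.78% of all genes did. With the replicate number as a term 3 were called, Ccl2 (adjusted p = 0.00146), Ccl4 (adjusted p = 0.00289) and Ccl7 (adjusted p = 0.0126), against 1.06% of all genes. Ccl2 also passed the fit without that term when replicate 1 or replicate 2 of 24 h was left out (adjusted p = 0.0449 in both cases), but not with any other array left out (adjusted p from 0.127 to 1.00). The methods name a two-sample Student's test, which was run here on the 2 KO and 2 WT log2 intensities. It gave an unadjusted p under 0.05 for 2 of the 10 and for 1694 of all 36947 genes. After adjustment it called none of them. In the same untreated cells the mean log2 KO/WT ratio of T and NK cell markers was 0.34 and 0.07, of B cell markers 0.15 and 0.22, of mast cell markers -0.12 and 0.67, and of large peritoneal macrophage markers 0.03 and 0.31. Those of macrophage markers were -0.00 and 0.28, of mesothelial cell and fibroblast markers 0.20 and 0.08, and of neutrophil markers -0.02 and -0.16. Their part in the chemokine ratios, here and in the differences in response, was not tested.

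The 10 spots of Ccl2 show how far repeats within a single array spread. On the untreated array of replicate 1 they ranged from 2.05 to 2.24 with a standard deviation of 0.07, and on that of replicate 2 from 1.60 to 1.79, also with 0.07. The ranges of the 2 arrays did not overlap. At 24 h the spots lay between -0.57 and -0.50 on the array of replicate 1 and between 0.18 and 0.36 on that of replicate 2, but with loess alone the means were -0.28 and -0.27. At 4 h the means of the 2 arrays were 0.46 and 0.47, with standard deviations over the spots of 0.055 and 0.089, but 0.85 and 0.36 with loess alone. The spots are repeats within an array and not further samples.

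**Figure D3:**
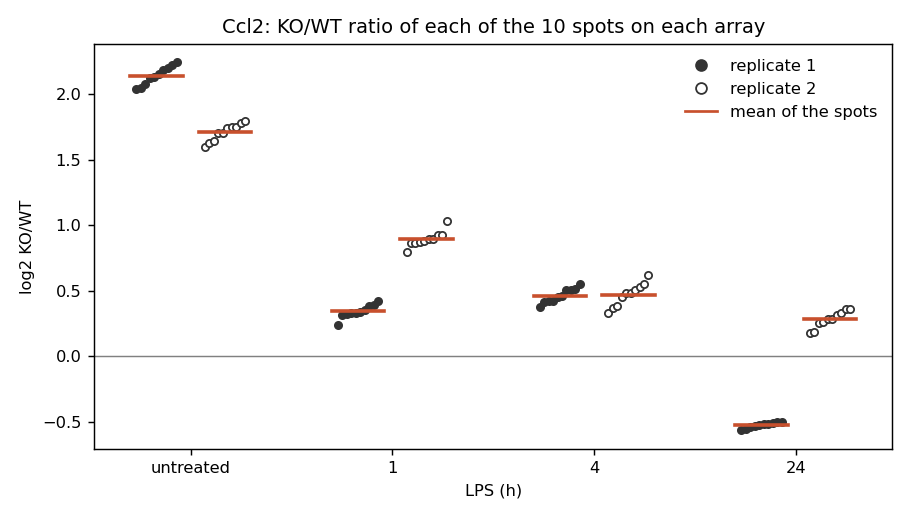
Log2 KO/WT ratio (y axis) of each of the 10 Ccl2 spots on each array, by time of LPS (x axis). Filled points are replicate 1, open points replicate 2, and bars are the means of the spots. The 20 untreated spots lie between 1.60 and 2.24, while at 24 h the 2 arrays lie on opposite sides of 0, which they do not with loess alone.

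After 1 h of LPS 3 of the 10 were higher in KO on both arrays and 2 were lower on both, shares near those of all genes (23.7% higher and 24.8% lower). Ccl7 (ratios of 0.68 and 2.05), Ccl2 (0.34 and 0.90) and Ccl12 (0.36 and 1.09) were the higher ones. For Ccl12 the WT channel of replicate 2 was not well above background, so the 1.09 is no exact size. The lower ones were Ccl6 (-0.96 and -0.28) and Ccl9 (-0.49 and -0.83). With loess alone 5 were higher on both and the same number as before were lower. None was called without a replicate term, where 0% of all genes were, and 4 of the 10 had an unadjusted p under 0.05 (5.48% of all). With the term Ccl9 (mean -0.66, standard error 0.10, adjusted p = 0.0207) and Ccl6 (mean -0.62, standard error 0.11, adjusted p = 0.0412) were called, against 0.574% of all genes. At 1 h the mean ratio of B cell markers was 0.57 and 0.17, of T and NK cell markers 0.64 and 0.04, of neutrophil markers -0.17 and -0.28, of macrophage markers -0.27 and 0.18, and of mast cell markers 0.09 and 0.37, and their part in the chemokine ratios was not tested. In the channels labelled 4 h, 5 were higher on both arrays and 3 were lower on both, where 22.1% of all genes were higher and 22.4% lower on both. With loess alone 5 were higher and 1 was lower. The values included 0.56 and 1.5 for Ccl7, 0.46 and 0.47 for Ccl2 (0.85 and 0.36 with loess alone) and 0.66 and 0.37 for Ccl22. No member was called at 4 h, without the term (0.0135% of all genes) or with it (0.566% of all), and 2 had an unadjusted p under 0.05 without it (4.30% of all). Ccl22 had an adjusted p of 0.0548 with the term.

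At 24 h 3 of the 10 were higher in KO on both arrays, a share near that of all genes (23.2%), and none was lower on both, where 21.6% of all genes were. With loess alone 2 were higher on both and 1 was lower, Ccl2. Ccl5 had ratios of 1.04 and 0.76, or 1.13 and 0.13 with loess alone (mean 0.90, standard error 0.22, adjusted p = 0.526, or 0.0644 with the replicate term). For Ccl7 the ratios were -1.22 and 1.58, for Ccl12 -0.51 and 2.53, for Ccl3 0.67 and -0.93 and for Ccl2 -0.53 and 0.28. These pairs have opposite signs, as did 55% of all genes at that time, but with loess alone those of Ccl2 were -0.28 and -0.27. No member was called at 24 h by either fit, where 0.0244% of all genes were called without the term and 0.585% with it, and 1 member had an unadjusted p under 0.05 (3.43% of all).

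**Figure D4:**
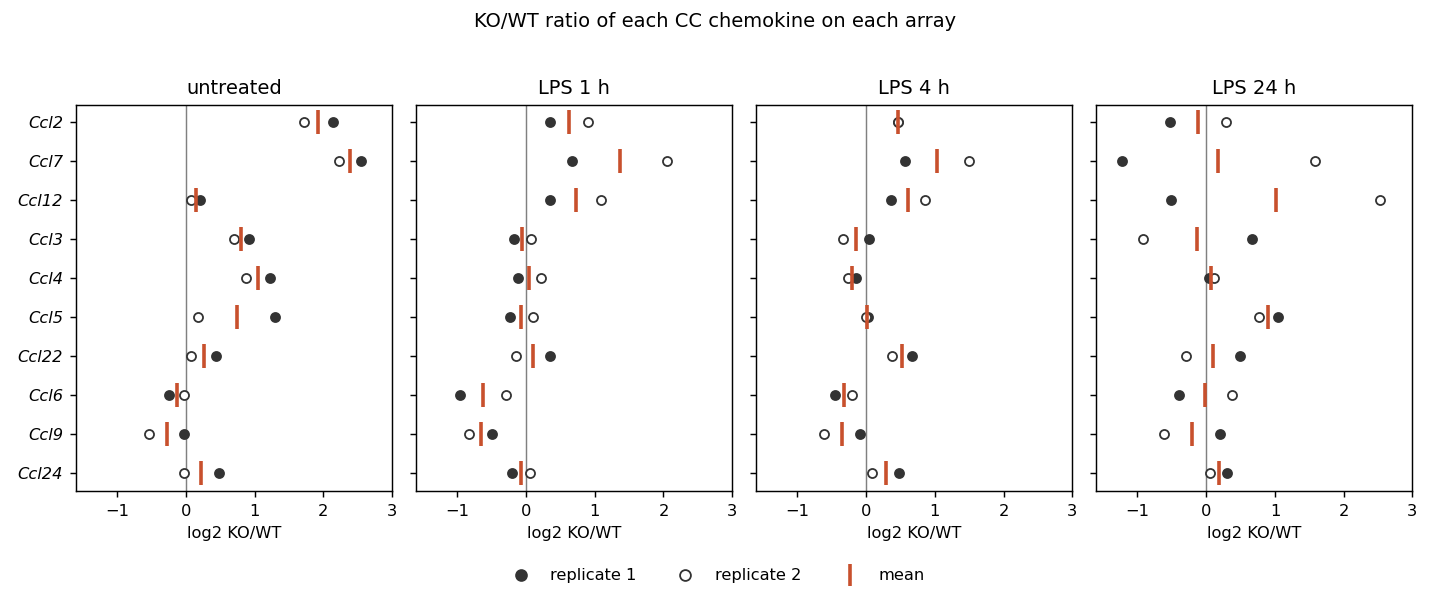
Log2 KO/WT ratio (x axis) of each CC chemokine (y axis) on the 2 arrays of each time point. Filled points are replicate 1, open points replicate 2 and bars their mean. In untreated cells both points of Ccl2, Ccl7, Ccl3 and Ccl4 lie at 0.69 or more, and at 24 h the points of Ccl7, Ccl12 and Ccl3 are the farthest apart, on opposite sides of 0.

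Over the mean of the 4 time points Ccl2 was the only member called without a replicate term, where 0.566% of all genes were. Its mean ratio was 0.72 (standard error 0.10, adjusted p = 0.0269), with 7 of 8 arrays above 0. The call was lost without either untreated array, without replicate 2 at 1 h, without either array at 4 h and without replicate 2 at 24 h (adjusted p from 0.0646 to 0.125), and without replicate 1 at 24 h 3 members were called, Ccl7 (mean 1.59, adjusted p = 0.0230) and Ccl12 (mean 1.00, adjusted p = 0.0202) beside Ccl2. With the software's processed signals the adjusted p was 0.0522. Over all genes the 209 calls of this comparison fell to between 1 and 159 with 1 array left out. The mean ratio of mast cell markers was -0.15 and 0.88 at 4 h and 0.27 and 0.85 at 24 h, of dendritic cell markers 0.02 and -0.06, and 0.20 and 0.15, and of large peritoneal macrophage markers 0.21 and 0.35, and -0.07 and 0.20, and their part in the ratios over all times was not tested. With the replicate term 7 members were called against 5.99% of all genes. Higher in KO were Ccl2 (adjusted p = 0.000893), Ccl7 (mean 1.24, adjusted p = 0.00264), Ccl5 (0.39, adjusted p = 0.0293), Ccl4 (0.24, adjusted p = 0.0299) and Ccl22 (0.24, adjusted p = 0.0175). Ccl7 exceeded 0 on 7 of 8 arrays, Ccl5 and Ccl22 on 6, Ccl4 on only 5. The mean of Ccl4 rests on its untreated ratios, 1.22 and 0.87. After LPS its ratios lay between -0.26 and 0.21, so it was not higher in KO throughout. Lower in KO were Ccl9 (-0.38, adjusted p = 0.00150) and Ccl6 (-0.27, adjusted p = 0.0163), each below 0 on 7 of 8 arrays. Ccl12 (0.62), Ccl24 (0.16) and Ccl3 (0.12) were called by neither fit on all 8 arrays. The means of Ccl12 include channels not well above background, both of untreated replicate 2 and that of WT in replicate 2 at 1 h. For Ccl22 this holds for the WT channel of untreated replicate 1. Since the untreated cells enter this mean, it is no measure of the genotypes after LPS alone.

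The question whether KO cells respond to LPS by another amount was put to the change of the KO/WT ratio from untreated cells. For Ccl2 the KO response was smaller than that of WT on both replicates at every time, by -1.80 and -0.81 at 1 h, -1.68 and -1.24 at 4 h, then -2.67 and -1.43 at 24 h. For Ccl4 the differences were -1.34 and -0.66, -1.36 and -1.13, and -1.18 and -0.75, and for Ccl3 they were below 0 as well on all 6 arrays. Ccl7 had -1.87 and -0.18 at 1 h, -1.98 and -0.73 at 4 h, then -3.76 and -0.66 at 24 h, so its 2 replicates disagree in size. No member was called without a replicate term at 1, 4 or 24 h, where 0% of all genes were, and at each time 3 of the 10 had an unadjusted p under 0.05 (1.39%, 2.9% and 3.33% of all). With the term the differences of Ccl4 at 4 h (mean -1.24, adjusted p = 0.0355) and of Ccl2 and Ccl4 at 24 h (means -2.05 and -0.97, adjusted p = 0.00925 and 0.0424) were called, against 0.0325% of all genes at 4 h and 0.211% at 24 h. None was called at 1 h (0% of all). These differences share the untreated ratio, which was above 0 for the same genes. At 24 h the KO/WT ratio itself was -0.12 for Ccl2 and 0.07 for Ccl4. The brightest gene of a channel read between 17.89 and 18.10, and the highest values of Ccl2 (17.87), Ccl5 (17.84), Ccl7 (17.72) and Ccl4 (17.72) came close to it, with 1 to 5 brighter genes in their channel. The quantile normalization gives the channels the same distribution, so that their highest values are alike by construction, and no spot of a member was saturated. Whether a further rise is shown in full so near these highest values was not tested.

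The genes with the most similar pattern over the 16 channels were found by Pearson's r among 12762 genes and are given as a description, since the channels share arrays and LPS times. Ccl3 and Ccl4 were most like Cxcl1 and Cxcl2, neutrophil-attracting CXC chemokines (r from 0.992 to 0.996), and like Il1b (0.994 for Ccl3) and Acod1 (0.993 for Ccl4). Ccl2 was most like Ell2 (0.979), Cxcl10 (0.969) and Phlda1 (0.966), and Ccl7 like Ch25h (0.977), Adora2b (0.976) and Lnpep (0.975). Ccl5 went with Mmadhc (0.985), Oasl1 (0.985) and Jmjd6 (0.98). Ccl24 went with Vsig4 (0.995), Tmem176a (0.994) and the complement gene C1qc (0.994), and Ccl6 with Ldhb (0.991), Cd209a (0.990) and Tmem176a (0.989). Ccl9 was closest to the coagulation factor gene F10 (0.981), Mthfs (0.977) and Fabp3 (0.972). The nearest to Ccl12 were BC035044 (0.984), Lce1k (0.98) and Rnf121 (0.979), and to Ccl22 Utp23 (0.990), 2410004B18Rik (0.988) and Rrp9 (0.986). Among the 10 themselves the closest pairs were Ccl3 with Ccl4 (0.991) and Ccl6 with Ccl24 (0.984), and the most opposed was Ccl12 with Ccl24 (-0.90).

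Of 11 other CC chemokine ligands looked for, 10 were measured and 7 were above background in at least 1 channel. None differed between the genotypes without a replicate term. With it Ccl8, a monocyte attractant of the same chromosome 11 cluster as Ccl2, was higher in KO at 24 h (adjusted p = 0.0250), with log2 intensities of 7.43 and 7.47 in KO and of 7.06 and 6.59 in WT, the last not well above background. In KO it rose by 24 h (adjusted p = 0.000271) from untreated values of 6.29 and 6.54, which were not well above background, so no fold is given. At 4 h 2 of the 10 had risen and 2 had fallen in both genotypes, shares near those of all genes given above. Ccl17, which binds Ccr4 as its neighbour Ccl22 does, rose by 2.41 on the log2 scale in WT and 2.81 in KO, and Ccl19, a Ccr7 ligand, by 0.83 and 0.84. Ccl25, a Ccr9 ligand, was lower by 1.80-fold in WT and 1.55-fold in KO, and Ccl27a, a Ccr10 ligand, by 1.64-fold and 1.35-fold.

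Of the 15 receptors and receptor-like genes all were measured and 13 were above background in some channel. At 4 h 3 rose and 4 fell in WT, and 3 rose and 6 fell in KO, beside 15.5% and 19.3% of all genes in WT and 16.2% and 19.7% in KO. The largest rise was that of Ccrl2, an atypical receptor that binds chemerin, from 9.95 and 10.11 in untreated WT channels to 14.68 and 14.64 at 1 h (24.8-fold) and 14.02 and 14.09 at 4 h (16.3-fold), and back to 10.05 and 10.11 at 24 h. Ccr7, the receptor for Ccl19, rose 2.77-fold in WT by 4 h. Ccr8 rose as well (adjusted p = 0.000567), from an untreated level that was well above background on 1 of 2 arrays. Ackr2, a scavenging receptor that removes inflammatory CC chemokines, fell by 4 h from 8.60 and 8.25 to 6.23 and 6.47 in WT (adjusted p = 0.000205) and from 8.44 and 9.47 to 6.19 and 6.74 in KO (adjusted p = 3.92e-05), values at 4 h that were not well above background. Ccr6 fell 3.52-fold and Ccr9 1.51-fold in WT at 4 h. Ccr2, which binds Ccl2, Ccl7 and Ccl12, was dim and fell by 4 h in WT, from 6.84 and 6.89 to 6.57 and 6.26, not well above background (adjusted p = 0.0110). Between the genotypes none was called without a replicate term. With it Ccr1 (mean ratio 0.56, adjusted p = 0.0295) and Ccr1l1 (0.52, adjusted p = 0.0353) were higher in untreated KO cells, where 1.06% of all genes were called. Over the mean of the times 6 receptors were called higher in KO with the term, Ccr1 (0.34), Ccr7 (0.37), Ccr1l1 (0.28), Ccr8, Ackr2 and Ccr2, and none lower, where 5.99% of all genes were called. No mean is given for the last 3, since Ccr8 in untreated replicate 2, Ackr2 at 4 h and Ccr2 at 4 and 24 h were not well above background in either genotype.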

How the data were processed

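Spot intensities of 8 Agilent 2-colour arrays were analysed, with groups taken from the sample titles, because a protocol label shared by all samples names 4 h alone. The authors extracted the intensity of each spot with Agilent Feature Extraction 10.7.3 and deposited the scanner files, and the log2 ratios of Cy5 to Cy3 that they deposited were used as an alternative only. Replicates are 2 biological replicates per genotype and time.

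Here the median intensities of both channels were corrected for background with normexp (offset 50), normalized by loess within arrays and by quantiles between arrays, and averaged over the spots of a probe, with limma 3.58.1 (R 4.3.3, statmod 1.5.0). A mean intensity had been planned, and the files analysed hold the median. The brightest probe stood for a gene, named through its RefSeq accession (27509 of 55681 gene probes). Log2 KO/WT ratios were fitted with lmFit and eBayes, with 1 coefficient per time and 4 residual degrees of freedom, for the 36947 features whose log2 intensity averaged 6 or more. LPS responses were fitted to the 16 channels by lmscFit (within-spot correlation 0.107), for 36927 of them. All p-values were adjusted over all genes tested by the Benjamini-Hochberg method, with a threshold of 0.05. Scripts were tested on simulated data.

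The difference between replicates 1 and 2 correlated across genes between all pairs of time points, with r from 0.475 to 0.679, so the replicate numbers were taken as pairs, although a dye effect of each gene would give such a correlation too and cannot be told apart. A second fit that adds the replicate number (3 residual degrees of freedom) is given where it changes a call. The number of arrays limits the precision. For other ligands and receptors no fold is given where a group was not well above background on 1 or 2 of its arrays, and for members this is said beside the fold. Genes named beside the 10 are other CC ligands and receptors called between the genotypes or, of those called in WT at 4 h, the 3 with the largest rise and the 3 with the largest fall of each list. The members and lists were chosen with earlier results of these data known. Positions of probes are not given, because the array's annotation and the reference use different builds. Promoters and their positions are those of RefSeq (GRCm38.p6).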

Additional observations from a re-analysis of the deposited data

Results flagged for a closer look

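The difference between the KO and WT responses to LPS passed the threshold for Ccl4 at 4 h (-1.24 on the log2 scale) and at 24 h (-0.97) and for Ccl2 at 24 h (-2.05), in the fit with the replicate number as a term (adjusted p = 0.0355, 0.0424 and 0.00925). Without that term the adjusted p was 0.333, 0.411 and 0.247. The response was smaller in KO on 2 of 2 arrays in each case. The 3 differences share the ratios of the untreated cells, which were above 0 for both genes. No group held the 4 samples that a test for outlying samples needs.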

How the results depend on the processing

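The 101 comparisons of a member that were called with or without the replicate block each kept their direction under each alternative run, and 97 to 101 kept their side of the threshold under another scaling, offset, filter or the software's processed signals. The calls that changed were those of Ccl12, Ccl4 and Ccl2 given above, the KO gain of Ccl9 between 1 and 4 h (adjusted p = 0.0601 with loess alone and 0.0624 with Aquantile scaling), the fall of Ccl5 between 4 and 24 h in WT (adjusted p = 0.0464 with processed signals) and the KO gain of Ccl2 between 1 and 4 h, which 4 of these alternatives called (adjusted p from 0.0186 to 0.048). With processed signals 0 members were called over the mean of the times, against 1. With the replicate block, the pairing by replicate number, 3 members were called in untreated cells and 2 at 1 h, against 0 and 0, and 7 over the mean of the times, against 1. For the difference in response it called 1 at 4 h and 2 at 24 h, against 0 and 0. It added 19 calls in all, ended none and changed no call other than those given beside the results. With single arrays left out, 0 to 1 members were called in untreated cells, 0 to 3 over the mean of the times and 5 to 8 for KO between 1 and 4 h. Over all genes, the calls without the block were 0 in untreated cells, 0 at 1 h, 5 at 4 h, 9 at 24 h and 209 over the mean, and with it 391, 212, 209, 216 and 2212. For the difference in response the block gave 12 at 4 h and 78 at 24 h, against 0, and for the KO change at 1 h 4352 against 2756. At 24 h loess alone, Aquantile scaling and the deposited ratios each gave 14, a filter on detection 5, and processed signals and an offset of 16 each 3. At 4 h processed signals gave 1, and an offset of 16, the filter on detection and the deposited ratios each 3. Over the mean, processed signals gave 128 and an offset of 16 gave 86. The methods' t-test gave 0 at every time after adjustment. The cause of these changes was not tested. Another probe of a gene could not be tried, since each member has 1. Ccl12 and Ccl22 are near background in untreated cells, which limits the size of their measured rise.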
